A study of Mus musculus with 2 samples.

Results

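The metabotropic glutamate receptors described here are 6 genes, Grm2, Grm3, Grm4, Grm5, Grm7 and Grm8, taken by symbol out of the 32285 genes listed for each library. They were followed through excitatory fields, interneuron subtypes and glial classes of the mouse hippocampus. Nuclear RNA came from 1 male and 1 female library of 3-month-old mice, both of genotype Stra8L/- with Nestin-Cre. In the Nestin-Cre line recombination takes place in neural progenitors and is inherited by their neuronal and macroglial progeny, whereas microglia have another origin. No library of another genotype was compared, so every comparison is between the male and the female library. How many animals a library holds is not stated in the labels. Effects of sex cannot be told apart from those of the animal, the dissection or the library itself. A single library per group allows no test, and none was made.

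Metabotropic glutamate receptors are G-protein-coupled receptors that respond to glutamate more slowly than the ion-channel receptors do. Group I, here Grm5, couples to Gq and phospholipase C and lies mainly on the postsynaptic side, bound to Homer scaffolds. Group II (Grm2 and Grm3) and group III (Grm4, Grm7 and Grm8) couple to Gi/o, lower cyclic AMP and mostly restrain transmitter release from axon terminals, and Grm3 is also known as a receptor of astrocytes.

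The 6 genes span very different lengths, which matters because nuclear RNA is rich in unspliced transcripts. In mm10, Grm5 (ENSMUSG00000049583) lies on chromosome 7 from 87584168 to 88134907 on the plus strand, with a gene body of 550.74 kb. Grm2 (ENSMUSG00000023192) lies on chromosome 9 from 106643095 to 106656082 on the minus strand, a body of 12.99 kb. Grm3 (ENSMUSG00000003974) lies on chromosome 5 from 9485541 to 9725170 on the minus strand, a body of 239.6 kb. The group III genes are Grm4 (ENSMUSG00000063239, chromosome 17, 27422387 to 27521403, minus, 99.02 kb), Grm7 (ENSMUSG00000056755, chromosome 6, 110645581 to 111567230, plus, 921.6 kb) and Grm8 (ENSMUSG00000024211, chromosome 6, 27275119 to 28135178, minus, 860.1 kb). Every one of the 6 overlaps at least 1 other annotated gene, among them the antisense genes Gm28111 at Grm2 and Gm20387 at Grm7. Reads of such neighbours may not be separated, since no source used here gives the use of strand in the counting.

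The male library held 103262825 UMIs (molecules counted once each) in 16174 barcodes, with a median of 4810, and the female 108286856 in 20150, with a median of 2798. After filters and removal of doublets, 13754 male and 16861 female nuclei remained. Of these, 6.89% and 27.8% fell in clusters that took no class. The libraries shared 101 barcodes, 78 among the nuclei kept. Stra8, the targeted gene, had 3 UMIs in 16034 male and 6 in 19251 female nuclei that passed the filters, and without a control library this checks nothing. Classes were named from lists of 8 markers, and a name means that nuclei are like that type. Class sums are given as CPM, UMIs per 1000000 UMIs of that class. Transcripts of the choroid plexus list were spread through other classes of the male library (2413 CPM summed in oligodendrocytes, against 215 in the female library). All intervals in the text are exact 95% intervals and cover counting error only.

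There were 16 classes with at least 50 nuclei in both libraries. Among neurons these were dentate granule cells (4033 male and 1724 female nuclei), CA1 (1759 and 1590), CA2 (110 and 93) and CA3 pyramidal neurons (649 and 489). Subicular or neighbouring cortical neurons formed 3 clusters, led by Fn1 (230 and 252), Npsr1 (476 and 50) and Vwc2l (335 and 230). A further neuronal cluster took no type from the marker lists and is named by its genes Ebf1 and Pld5 (50 and 882). Interneurons split into Sst (165 and 101), Lamp5 (106 and 81) and Vip or Cck (166 and 104) classes and 1 class named only by its genes Cdh18 and Syt2 (118 and 83). Glia were oligodendrocytes (2348 and 3580), their precursors (358 and 489), astrocytes (946 and 1347) and microglia (796 and 698). In each of these classes that was named from a list, all 8 markers of that list were detected in both libraries. Detection takes only 1 UMI in a class sum and does not bear on a name. The granule and CA1 lists were likewise detected in full in oligodendrocytes and microglia.

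Grm5, the group I receptor, had the highest level per kb of gene body among the 6 members in 13 of these 16 classes. These were every neuronal class and oligodendrocyte precursors, in both libraries. That lead depended on the scale. By UMIs Grm7 was above Grm5 in CA3, Npsr1 and Vwc2l neurons of both libraries. Per kb of exon it was above Grm5 in granule, Ebf1/Pld5 and Vip or Cck nuclei of both libraries too, and in female Sst nuclei. Grm5 in CPM was highest in Fn1 subicular neurons, at 4287 CPM (4212 to 4363) for the male and 4297 CPM (4237 to 4358) for the female library. Values below keep this order. CA1 neurons came next, at 3135 (3108 to 3163) and 3294 CPM (3266 to 3323), followed by CA2 at 2658 and 2831 CPM. In these first places both libraries of a class lay above both libraries of the next, so the order held beyond the distance between the libraries. A group of Sst (2548 and 2232 CPM), Cdh18/Syt2 (2188 and 2432 CPM) and CA3 nuclei (2144 and 2334 CPM) did not separate. Granule, Ebf1/Pld5, Lamp5, Vwc2l and Npsr1 nuclei followed between 1718 and 2139 CPM and did not separate from each other either. The small Pvalb class, 23 male and 18 female nuclei, reached 4333 (4058 to 4622) and 4307 CPM (4001 to 4630), close to the Fn1 neurons.

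Outside these neurons Grm5 was lower, and oligodendrocyte precursors held the highest glial level. Precursors had 1084 (1022 to 1149) and 1154 CPM (1101 to 1209), above Vip or Cck interneurons at 866 and 1032 CPM. A Grm5 UMI was found in 89.1% and 87.7% of precursor nuclei (median depth 2657 and 2815 UMIs). In microglia (median 1543.5 and 1603 UMIs), which serve here as the class that should carry little neuronal RNA of its own, the share was 54.6% and 37.2%. Thinning each nucleus to 1000 UMIs leaves out shallower nuclei, 68 and 165 oligodendrocytes, 36 and 62 microglia and at most 7 of any other class among these glia and the granule and CA fields. At that equal depth the shares were 62.7% and 64.5% in precursors against 38.4% and 25.2% in microglia. Oligodendrocytes (36.7% and 22.6%) and astrocytes (30.6% and 21.1%) were below microglia, so these shares are not read as expression. What the Grm5 UMIs of the 3 classes come from was not tested. The 3 classes lay at 495 and 290 CPM (microglia), 457 and 257 CPM (oligodendrocytes) and 379 and 258 CPM (astrocytes), and they did not separate.

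Grm3, a group II receptor, was a glial transcript first. Oligodendrocytes held 1224 (1191 to 1257) and 1168 CPM (1142 to 1194), and astrocytes 975 (940.1 to 1011) and 1013 CPM (983.9 to 1043). Oligodendrocytes were thus above astrocytes in both libraries. Vwc2l neurons followed at 433.5 and 379 CPM, then Npsr1 neurons at 214 and 219 CPM, and each of these steps exceeded the distance between the libraries. Among interneurons, Sst nuclei were highest at 146 and 154 CPM. CA3 neurons were at the bottom with 12.6 (10.2 to 15.5) and 10.9 CPM (8.41 to 13.9), below CA1 at 64.3 and 66.5 CPM and below microglia at 42.8 and 34.4 CPM. At equal depth a Grm3 UMI was seen in 64.4% and 63.7% of oligodendrocytes and 55.03% and 56.7% of astrocytes, against 3.29% and 2.36% of microglia. In nuclei held to a minimum of 1000 genes and a maximum of 1% mitochondrial UMIs, oligodendrocytes (1617 and 1485 CPM) again lay above astrocytes (1366 and 1392 CPM).

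Grm2, the other group II receptor and an autoreceptor of granule cell axons, was counted in few UMIs in each class. Granule cells were highest in both libraries, at 42.8 (40.2 to 45.5) and 28.9 CPM (25.8 to 32.3). None of the 15 steps between neighbouring classes exceeded the distance between libraries, and the male value was the higher one in 14 of 16 classes. A UMI was found in 20.3% and 15.4% of granule nuclei (median 5069 and 5682.5 UMIs) and in 3.02% and 2.44% of microglia. At equal depth these shares shrank to 4.22% and 1.80% against 1.97% and 1.42%. The female shares were thus close, but the male granule share stayed above that of microglia. By class sum microglia held 19.9 CPM (upper limit 29.1) in the male and 14.6 CPM (upper limit 23.4) in the female library. The granule interval lay above that limit in each library. CA1 (6.38 and 1.19 CPM) and CA3 neurons (4.08 and 1.68 CPM) were lower than granule cells. Their shares at equal depth were 0.68% and 0.13% in CA1 and 0.31% and 0.21% in CA3. Per gene body length, granule Grm2 (3.29 and 2.23 CPM per kb) was of the order of Grm5 (3.57 and 3.82 CPM per kb) and Grm7 (1.84 and 2.19 CPM per kb). A short gene such as Grm2 gives few UMIs for the same level per kb of gene body. Per kb of exon, granule Grm2 was 8.74 and 5.91 CPM per kb, far below Grm5 and Grm7 on that scale (given below). How these genes compare thus depends on the length used, and the use of intronic reads in the counting is not given. Vip or Cck and Cdh18/Syt2 interneurons had no Grm2 UMI in the female library, which allows up to 3.12 and 2.99 CPM.

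Grm7, a group III receptor of the presynaptic active zone, was high in the excitatory classes and Sst interneurons and ranked the classes differently from Grm5. Npsr1 subicular (2730 CPM, 2672 to 2790, and 2437 CPM, 2304 to 2575), CA3 (2351 and 2652 CPM) and Vwc2l neurons (2267 and 2502 CPM) led and did not separate from each other. Ebf1/Pld5, granule and Fn1 nuclei formed the next step between 1700 and 2021 CPM, and CA1 (1625 and 1496 CPM), CA2 (1403 and 1542 CPM) and Sst nuclei (1293 and 1494 CPM) the one after. The hilar mossy cluster, only 41 and 37 nuclei and named from 3 of its 8 markers, reached 3029 (2891 to 3172) and 3049 CPM (2905 to 3199). Vip or Cck (517 and 635 CPM) and Cdh18/Syt2 nuclei (402 and 503 CPM) were lower, and Lamp5 nuclei were lowest among neurons at 198 (168 to 231) and 133 CPM (107 to 163), near the level of microglia (215 and 127 CPM).

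Oligodendrocytes carried Grm7 at 599 (575.5 to 622) and 750 CPM (729 to 771), not separated from their precursors at 541 and 631 CPM. At equal depth 37.6% and 38.9% of oligodendrocytes had a Grm7 UMI, against 17.6% and 11.5% of microglia. Astrocytes were at the bottom of the 16 classes, at 122 and 93.2 CPM, with 11.7% and 9.01% at equal depth, below microglia. With the astrocyte cluster that held 38.5% called doublets added, astrocyte Grm7 was 516 and 408 CPM and Grm5 was 721 and 508 CPM, so the low astrocyte values hold only without that cluster.

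The ratio of Grm7 to Grm5 UMIs within a class does not depend on the class total. It was 1.10 in male and 1.14 in female CA3 neurons, 0.865 and 0.960 in granule cells, and 0.518 and 0.454 in CA1. Npsr1 (1.59 and 1.22) and Vwc2l neurons (1.22 and 1.17) resembled CA3 in holding more Grm7 than Grm5 UMIs. At the other end, Cdh18/Syt2 (0.184 and 0.207) and Lamp5 interneurons (0.094 and 0.068) were dominated by Grm5. Since the genes differ in length, these are orders of classes and not of genes. In granule cells Grm5 was above Grm7 per kb of gene body, but per kb of exon Grm7 (289 and 343 CPM per kb) was above Grm5 (192 and 205 CPM per kb).

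Grm8, a group III receptor known from lateral perforant path terminals in the dentate gyrus, was restricted to few classes at high level. Fn1 (1052 CPM, 1016 to 1090, and 761 CPM, 735.5 to 787) and Vwc2l neurons (1006 CPM, 966 to 1047, and 863 CPM, 823 to 905) led, the male library ranking Fn1 first and the female Vwc2l. Npsr1 neurons came next with 586 and 524 CPM, then Ebf1/Pld5 (451 and 477 CPM) and Vip or Cck nuclei (270 and 455 CPM). Sst interneurons held 196 and 270 CPM and granule cells 139 and 92.5 CPM. The remaining classes lay between 5.55 and 51.8 CPM, a range in which microglia stood at 28.3 and 16.4 CPM. CA1 (45.4 and 34.2 CPM) and CA3 (16.3 and 20.6 CPM) were within it.

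The hilar mossy cluster had 1091 (1009 to 1179) and 1086 CPM (1001 to 1177) of Grm8, as high as Fn1 and Vwc2l neurons. Grm8 led this cluster's gene list, although the Grm genes were left out of the clustering. No marker of the mossy list was among its 20 leading genes, so its name rests on little. Choroid plexus nuclei, 26 in the male library alone, held 432 CPM (331 to 554).

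Grm4, a group III receptor best known from cerebellar granule cells, was near the level of microglia in hippocampal fields. Vwc2l neurons were highest among the 16 classes at 43.8 (35.8 to 53.1) and 32.3 CPM (24.8 to 41.2). Vip or Cck, Npsr1, Ebf1/Pld5, Sst and Fn1 nuclei lay between 9.31 and 26.2 CPM. CA1, CA2, CA3 and granule cells had at most 4.73 CPM, no higher than microglia at 4.58 and 4.30 CPM except for CA2 in the male library. A thalamic or habenular cluster of 144 nuclei, seen only in the female library, reached 53.6 CPM (43.5 to 65.3).

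**Figure D1:**
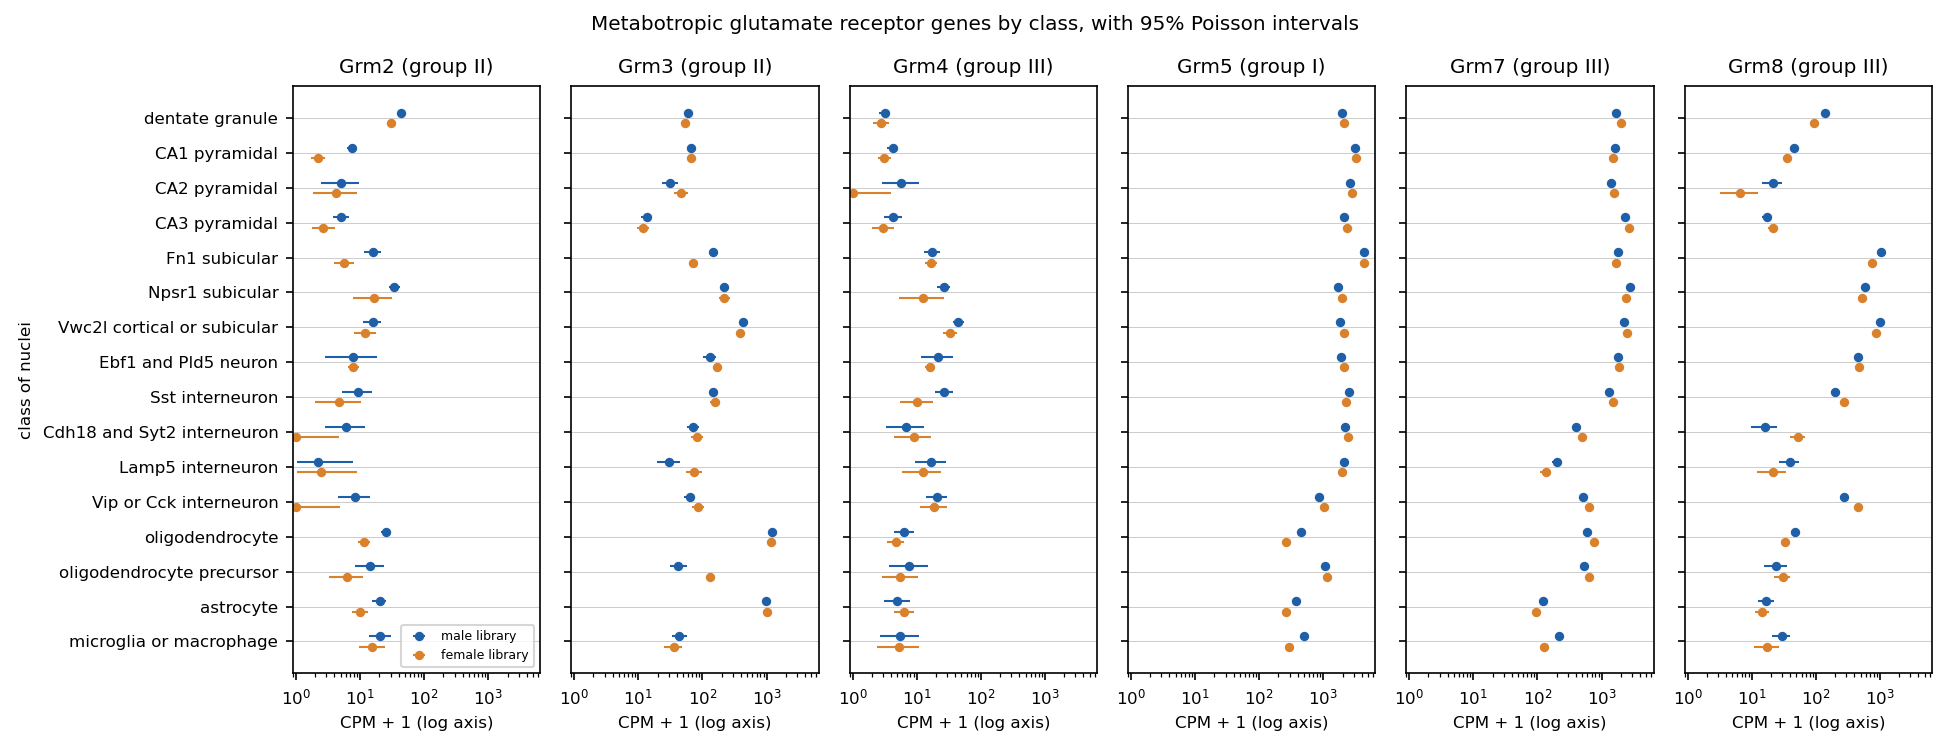
Level of each receptor gene (CPM + 1, log axis) in the 16 classes with at least 50 nuclei in both libraries, for the male and the female library, with exact 95% Poisson intervals. Grm5 is highest in Fn1 neurons and, among neurons, lowest in Vip or Cck nuclei (866 and 1032 CPM), below oligodendrocyte precursors. Grm7 is high in excitatory classes and Sst nuclei and low in Lamp5 nuclei (198 and 133 CPM). Grm3 is highest in oligodendrocytes (1224 and 1168 CPM) and astrocytes. Grm8 is highest in Fn1 and Vwc2l neurons, and Grm2 and Grm4 stay at or below 43.8 CPM.

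The rank order of the 16 classes was close between libraries for each gene. Spearman's rho between the male and the female levels over the 16 classes was 0.971 for Grm7, 0.947 for Grm5, 0.85 for Grm8, 0.847 for Grm4, 0.837 for Grm2 and 0.826 for Grm3, as a description. For Grm3 and Grm5, 7 of 15 neighbouring steps exceeded the distance between libraries, for Grm7 and Grm8 6 of 15, and for Grm4 4 of 15. The class with the highest level was the same in both libraries for 4 of the 6 genes, the exceptions being Grm7 and Grm8.

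Subclusters of 2 interneuron classes differed in Grm7, and Grm8 differed most between those of the Vip or Cck class. The Vip or Cck class joined a subcluster led by Vip (57 male and 46 female nuclei) and one led by Syt6 (109 and 58). Grm8 was 1215 and 1582 CPM in the first and 33.5 and 46.8 CPM in the second, and Grm7 was 1767 and 2013 against 204 and 136 CPM. Grm5 was close in both, at 1074 and 1112 against 813 and 1003 CPM. The low class mean of Grm7 therefore covers a subcluster at the level of CA1 neurons. Grm8 was itself among the leading genes of the Vip subcluster, though it was not used to cluster.

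Lamp5 nuclei split in the same manner for Grm7. A subcluster led by Kit (32 and 23 nuclei) held 529 and 420 CPM, and one led by Sfta3-ps (74 and 58) held 62.3 and 58.2 CPM. Grm5 was above 1800 CPM in both (2408 and 2465 against 1964 and 1829 CPM). In CA3 the subclusters stayed closer together, with Grm7 from 2157 to 2425 CPM (male) and from 2384 to 3290 CPM (female). The 2 granule clusters, led by Glis3 and C1ql2, had Grm2 at 38.1 and 51.9 CPM in the male library and at 29.0 and 28.7 CPM in the female.

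**Figure D2:**
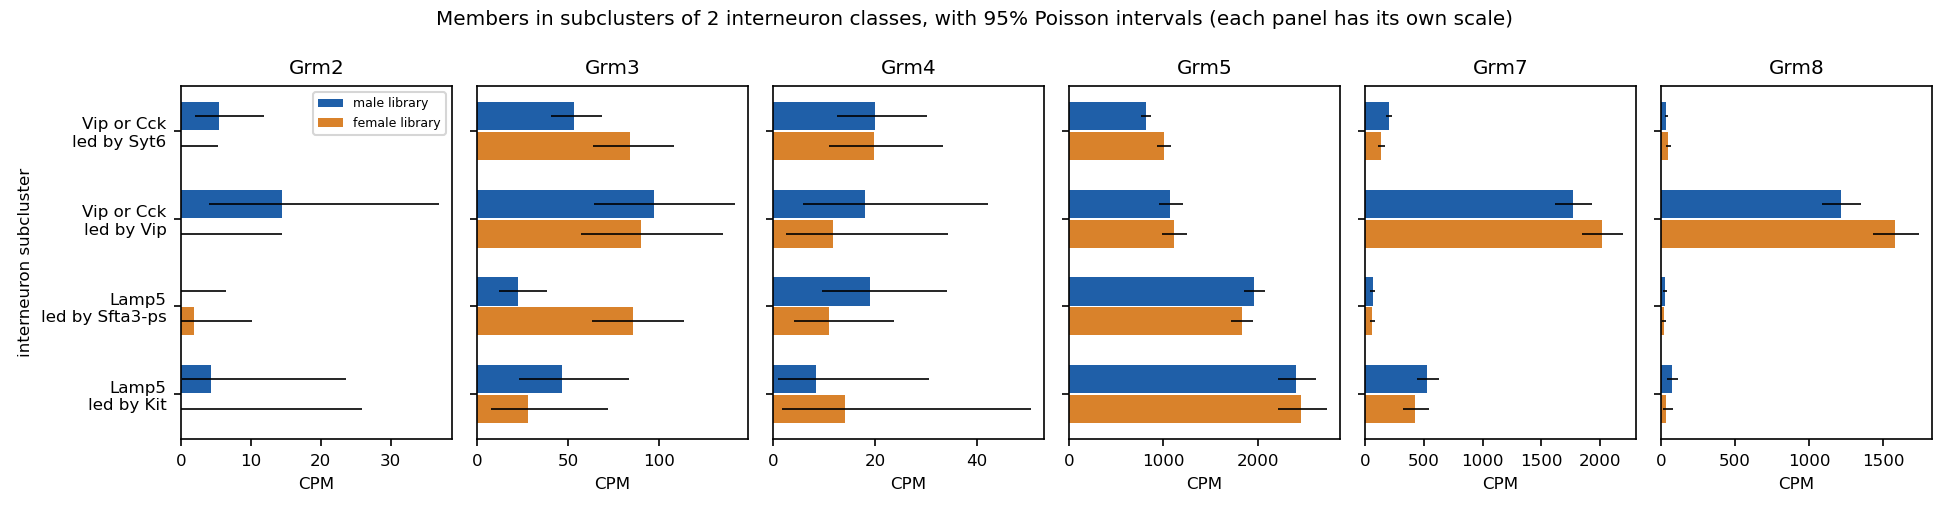
Level (CPM, linear axis from 0) of the receptor genes in the subclusters of the Vip or Cck and the Lamp5 interneuron classes, male and female libraries side by side, with exact 95% Poisson intervals. Grm7 and Grm8 are concentrated in the Vip-led subcluster and Grm7 in the Kit-led Lamp5 subcluster. Grm5 lies between 813 and 2465 CPM in all 4.

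Adding up the UMIs by group gave the make-up of each class. Over the 6 genes, group I held 64.3% (63.9% to 64.6%) of male and 67.3% of female receptor UMIs in CA1, 64.5% and 63.9% in CA2, and 58.4% and 62.7% in Fn1 neurons. CA3 held more group III, with 52.3% and 53.3% against 47.3% and 46.5% group I, and granule cells were balanced at 50.3% and 48.9% group I. Lamp5 (88.1% and 89.1%) and Cdh18/Syt2 interneurons (81.5% and 79.0%) were dominated by group I. Vwc2l (59.0% and 57.3%) and Npsr1 neurons (63.0% and 57.2%) had group III as their largest share, as did the hilar mossy cluster (62.5% and 64.2%).

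Group II was the largest share in both libraries in 2 of the 16 classes, oligodendrocytes (53.0% and 53.1%) and astrocytes (65.6% and 73.4%). In the neuronal classes among the 16, group II held between 0.25% in female CA3 and 7.97% in male Vwc2l nuclei. These shares leave out the family genes that are not among the 6. With every metabotropic glutamate receptor gene of the files counted, group II still led in the same 2 classes. Group I then rose to 54.8% and 54.2% in CA3, to 59.4% and 58.6% in granule cells and to 50.4% and 50.9% in Ebf1/Pld5 nuclei. Group III then no longer led in CA3 and Ebf1/Pld5 nuclei, nor in female granule cells, and group I stayed ahead in male granule cells. Female Vip or Cck nuclei turned likewise, from 46.4% group I and 49.8% group III to 50.9% and 45.6%. In CA1 that count gave 66.7% and 69.4% group I, and Npsr1, Vwc2l and mossy nuclei kept group III as the largest.

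Per kb of gene body the long Grm7 and Grm8 count for less and the short Grm2 for more. Granule cells then had 39.1% and 44.5% group I, 38.7% and 28.5% group II and 22.2% and 27.0% group III. Group II rose to 81.5% and 80.7% in oligodendrocytes and to 86.3% and 88.5% in astrocytes. Microglia also turned, from 7.77% and 10.1% to 58.5% and 63.6% group II, on 26 and 17 Grm2 UMIs and 56 and 40 Grm3 UMIs.

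**Figure D3:**
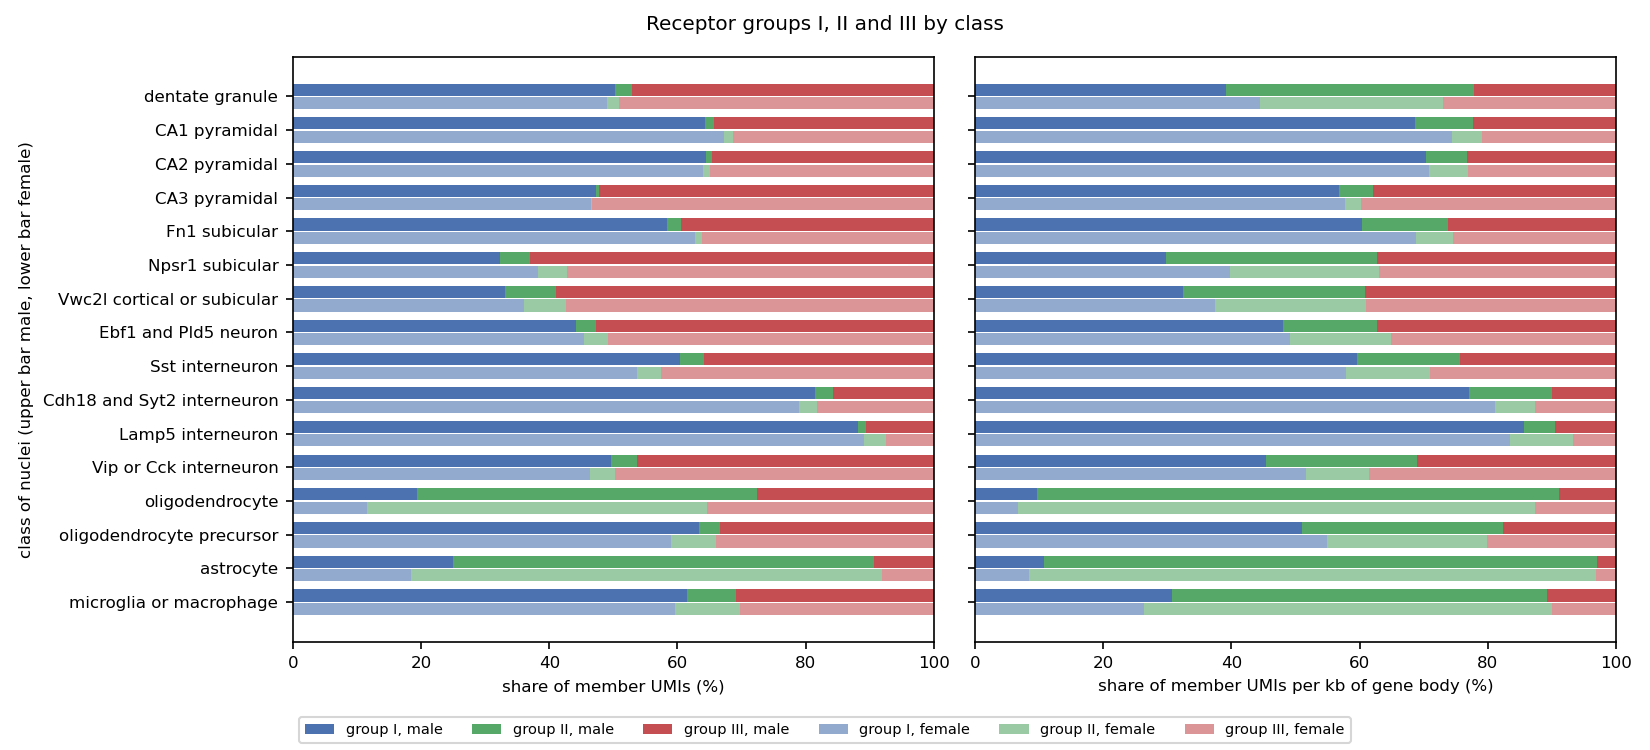
Share of receptor UMIs of the 6 genes held by group I, II and III in each class and library (stacked bars, percent), counted as UMIs and per kb of gene body. Group II is the largest share by UMIs in oligodendrocytes and astrocytes, and length scaling raises it in every class shown.

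The male and female levels were then set against each other, gene by gene, as log2 of male CPM + 5 over female CPM + 5. A gene counted as measured in a class where the libraries summed to 50 UMIs or more and the higher one reached 20 CPM, which left 66 of 96 pairs of gene and class. Over all genes measured in the same way, 11.1% of pairs in the 16 classes together lay past 1.5-fold (9058 higher in the male library and 3591 in the female), and the median gene was 0.05 to 0.15 higher in the male library, depending on the class. Among the 66 receptor pairs, 8 were past 1.5-fold higher in the male and 4 higher in the female library, 18.2% in all, with a median log2 ratio of -0.06. Those 66 pairs come from 6 genes, and a class enters up to 6 times.

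No receptor gene passed 1.5-fold in granule (0 of 5 measured, where 6.69% of all genes did), CA1 (0 of 4, 3.5%), CA2 (0 of 3, 9.22%), CA3 (0 of 3, 4.05%), Vwc2l (0 of 5, 10.8%), Ebf1/Pld5 (0 of 5, 11.8%), Sst (0 of 4, 10.6%) or astrocyte nuclei (0 of 3, 11.8%). Of the others, Fn1 nuclei had 1 of 4 (background 9.89%), Npsr1 2 of 6 (25.9%), Cdh18/Syt2 1 of 4 (11.4%), Lamp5 1 of 3 (11.8%) and Vip or Cck 1 of 4 (10.1%). Among glia, oligodendrocytes had 2 of 5 (12.4%), precursors 1 of 4 (10.4%) and microglia 3 of 4 (15.2%). The numbers per class are too small to be read apart from these backgrounds.

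Grm5 stayed within 1.5-fold in every neuronal class, and its log2 ratio ran from -0.25 to 0.82 over the 16 classes. Its values past the fold were in oligodendrocytes, 457 against 257 CPM (log2 ratio 0.82, 0.74 to 0.92), and in microglia, 495 against 290 CPM (0.76, 0.58 to 0.97). Grm7 was past the fold in microglia alone, 215 against 127 CPM (0.74, 0.47 to 1.07). In oligodendrocytes Grm7 went the other way from Grm5, 599 against 750 CPM (-0.32, -0.39 to -0.26), inside the fold. Both classes held more of the neuronal marker lists in the male library. The granule list summed to 637 against 468 CPM in oligodendrocytes (7 of 8 markers higher) and 1110 against 921 CPM in microglia (7 of 8), and the CA1 list to 504 against 402 CPM (8 of 8) and 512 against 427 CPM (7 of 8). No marker of either list was at 0 in these classes. The part of such transcripts in the Grm5 and Grm7 ratios was not tested. With called doublets kept, the microglial ratios were -0.080 for Grm5 and 0.075 for Grm7.

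The oligodendrocytes of the libraries were also largely different clusters, 2257 of 2348 male nuclei in one led by Aspa and 3387 of 3580 female nuclei in another led by A230001M10Rik. Within the first, Grm5 was 459 and 403 CPM and Grm7 598 and 483 CPM. Within the second, Grm5 was 426 and 249 CPM and Grm7 620 and 764 CPM. The Grm5 difference was thus small in the cluster most male nuclei fell in and present in the one most female nuclei fell in. Grm2 in oligodendrocytes was 24.4 and 10.5 CPM (0.92, 0.77 to 1.67), from 104 and 71 UMIs, and its shares of nuclei at equal depth were near those in microglia. The ratio of Grm7 to Grm5 UMIs in oligodendrocytes differed as well, 1.31 (1.23 to 1.39) for the male and 2.91 (2.76 to 3.08) for the female library.

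Grm3 moved in both directions. It was higher in male Fn1 neurons, 144 CPM (131 to 159) against 69.96 CPM (62.5 to 78.1), a log2 ratio of 0.99 (0.83 to 1.26). Marker sums of the Fn1 class differed too. The subicular list summed to 3603 CPM for the male and 1927 CPM for the female nuclei. The CA1 list summed to 1204 and 2055 CPM. The oligodendrocyte list, at 326 and 498 CPM, and the astrocyte list, at 119 and 125 CPM, were not higher in the male library. None of their markers was at 0. The part of any of these lists in the Grm3 value was not tested. The share of Fn1 nuclei with a Grm3 UMI was 49.6% and 42.5%.

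In oligodendrocyte precursors Grm3 was lower in the male library, 41.2 CPM (29.8 to 55.5) from 43 UMIs against 132 CPM (114 to 151) from 202 UMIs, a log2 ratio of -1.56 (-2.19 to -1.20). The UMIs were in 25 of 358 male and 94 of 489 female nuclei. Beside it, the oligodendrocyte list, whose cells hold the most Grm3, summed to 1401 and 2615 CPM, with 0 of 8 markers higher in the male library and none at 0. Its part in the Grm3 value was not tested. The astrocyte list was 557 and 614 CPM. The ratio shrank to -0.13 with called doublets kept and to -0.43 with the coarser clustering, so the call is lost under both.

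Lamp5 interneurons also had less Grm3 in the male library, 29.5 (18.9 to 43.8) against 73.7 CPM (54.9 to 96.9), a log2 ratio of -1.19 (-2.09 to -0.60) on 24 and 51 UMIs. The difference lay in the Sfta3-ps subcluster, 22.5 against 85.5 CPM. The Kit subcluster, at 46.6 (23.2 to 83.3) and 28.0 CPM (7.63 to 71.7) on 11 and 4 UMIs, gave no direction. The oligodendrocyte list summed to 405 and 651 CPM in these nuclei, with none of its markers at 0, and its part was not tested.

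Grm8 was lower in male Vip or Cck nuclei, 270 (244 to 299) against 455 CPM (413 to 500), a log2 ratio of -0.74 (-0.95 to -0.55). The Vip subcluster, which holds nearly all of it, was 34.3% of male and 44.2% of female nuclei of the class, and within it the values were 1215 and 1582 CPM, inside 1.5-fold. In Cdh18/Syt2 nuclei Grm8 was 14.9 and 51.8 CPM (-1.51, -2.659 to -1.001), but 41 of the 52 female UMIs came from 3 nuclei, and 16 male and 11 female nuclei had any. In microglia it was 28.3 and 16.4 CPM (0.64, -0.05 to 1.67), on 37 and 19 UMIs. That value came to 0.57 once centred on the median gene, inside 1.5-fold.

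Npsr1 neurons, with 50 female nuclei, had Grm2 at 33.3 and 15.5 CPM (0.90, 0.07 to 2.35) on 101 and 8 UMIs and Grm4 at 25.4 and 11.6 CPM (0.87, -0.07 to 2.61) on 77 and 6 UMIs. Both rest on few female molecules, and their intervals are wide. In granule cells Grm2 (0.49) and Grm8 (0.56, 139 and 92.5 CPM) were just inside the fold. With every nucleus thinned to 1000 UMIs these came to 1.02 (42.9 and 18.6 CPM) and 0.74 (144 and 84.4 CPM), past it. Thinning was 1 random draw that leaves fewer UMIs, and no interval is given for these values.

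**Figure D4:**
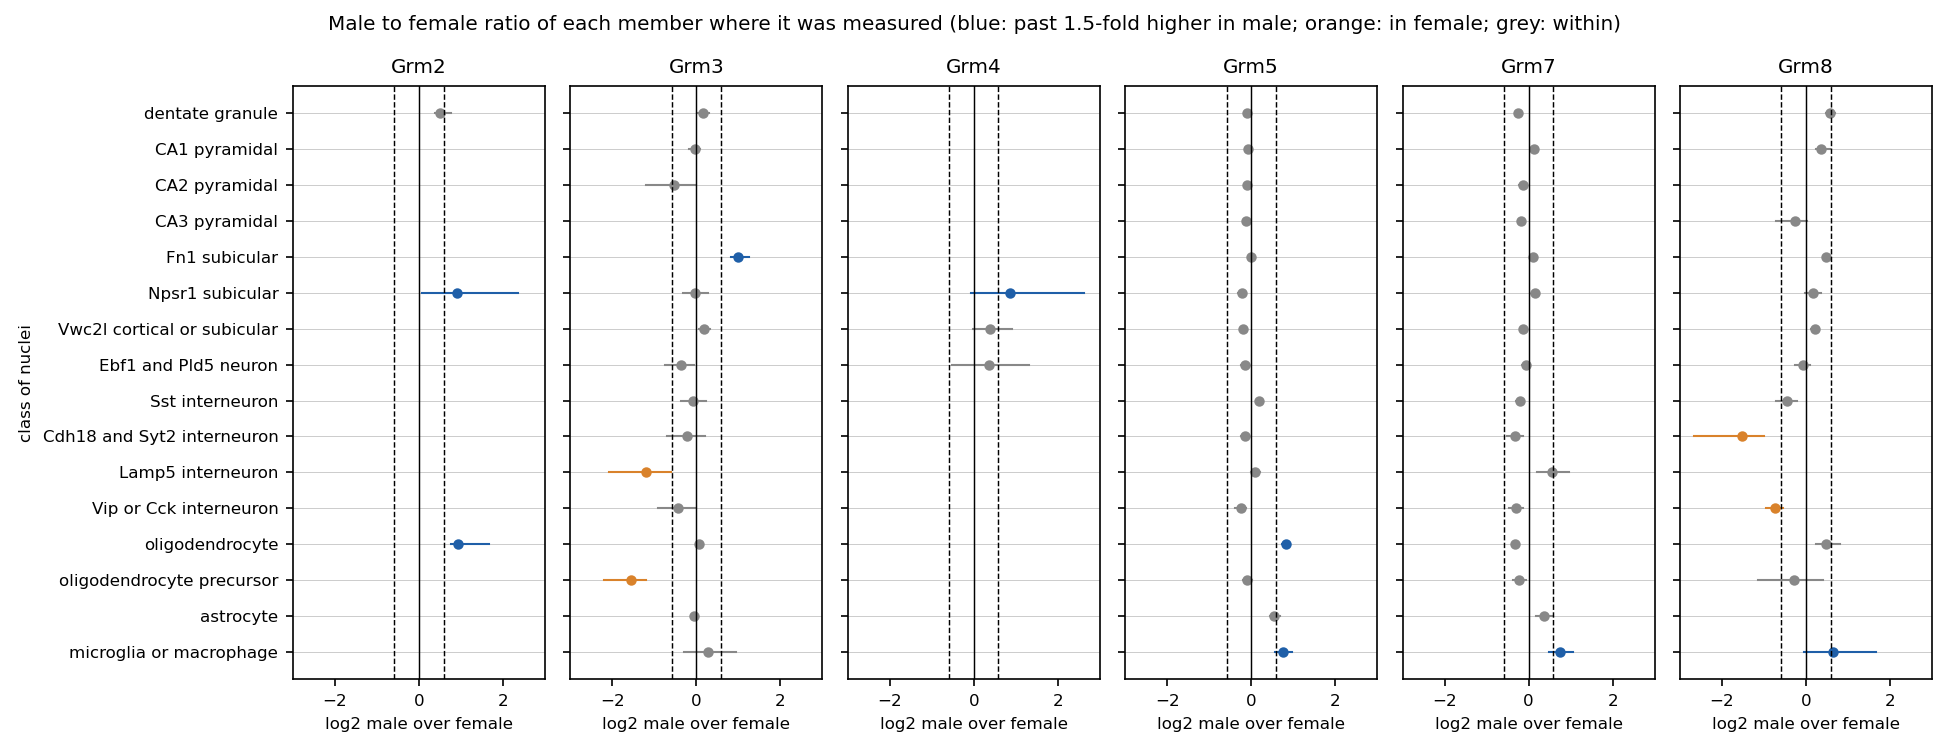
Log2 ratio of male over female level (CPM + 5) for each receptor gene in each class where it was measured, with the exact 95% interval of the UMI ratio, which is computed without the added 5 CPM; dashed lines mark 1.5-fold. Most of the 66 points lie between the lines, 8 lie above and 4 below.

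The genes that receptors of group I signal through were read in the same 16 classes. The list of the Gq cascade (10 genes, among them Gnaq, the phospholipases Plcb1 and Plcb4 and the IP3 receptor Itpr1) gave 132 pairs, 16 past 1.5-fold higher in the male and 6 higher in the female library, 16.7% against the background of 11.1%. Its median log2 ratio was 0.05, near that of the median gene. Itpr2, another IP3 receptor, had the lowest median ratio of the list (-0.23). Plcb1 was highest in astrocytes (1528 and 1926 CPM) and Plcb4 in Vwc2l neurons (230 and 278 CPM).

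Postsynaptic scaffolds (9 genes in the files) gave 20 higher and 4 lower in the male library of 122 pairs, 19.7%, with a median of 0.16. Over all genes 11.1% of pairs were past the fold, and these also lay mostly on the male side (9058 against 3591). Ncdn, which encodes neurochondrin, a binding partner of Grm5, had the highest median ratio (0.92). It was higher in the male library in each of the 16 classes (log2 ratio 0.51 to 1.24), 225 against 92.5 CPM in granule cells. Its level was highest in microglia (323 and 187 CPM), and what the shift over all classes comes from was not tested. Dlgap1 was lowest in the list, with a median of 0.01. Homer1, the scaffold that ties group I receptors to the postsynaptic density, was highest in Fn1 neurons (399 and 291 CPM), the class highest in Grm5. Homer2 was highest in CA2 (207 and 185 CPM) and Homer3 in CA3 neurons (64.1 and 54.8 CPM).

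The Gi/o cascade shared by groups II and III has 13 genes here, with G-protein subunits, adenylyl cyclases and the inward rectifiers Kcnj3, Kcnj6 and Kcnj9. It gave 22 of 176 pairs higher in the male library and 7 higher in the female. That is 16.5%, against 11.1% over all genes, with a median of 0.09. In oligodendrocytes 5 of 12 and in microglia 5 of 11 were higher in the male library and none was lower past the fold, where 767 of 7982 and 857 of 8199 of all genes were higher. These are the classes with the most such genes of the 16, picked after their values were seen. Kcnj6 had the lowest median ratio (-0.09), and Rgs4 the highest (0.92), from 1 class only. Presynaptic and trans-synaptic partners (5 genes) gave 11 higher and 1 lower of 66, 18.2% against 11.1% over all genes, with a median of 0.08. Elfn1, a postsynaptic adhesion protein that recruits Grm7 across the synapse, was highest in Sst interneurons (127 and 75.4 CPM), where its role is best known. Elfn2, which had the highest median of this list (0.52), was highest in precursors (74.7 and 53.4 CPM), Pick1 in Cdh18/Syt2 nuclei (28.1 and 37.9 CPM), and Prkca had the lowest median (-0.09).

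Likeness of pattern was measured by Pearson's r of log2(CPM + 5), averaged over both libraries, across the 11 classes with at least 100 nuclei in each, among 4441 genes. All classes share the libraries and their depth, so r is a description only. Grm5 was most like Osbpl6 (0.979), Fam189a1 (0.979) and Rbfox1 (0.976), and Grm7 most like 4930587E11Rik (0.958), Cntn3 (0.955) and Slc4a10 (0.939). Grm8 was most like Xkr6 (0.906), Klhl1 (0.882) and Acbd6 (0.877), and Grm4 most like Chd5 (0.917), Ralgapb (0.917) and Dpp10 (0.913). For Grm3 the closest were Gm48742 (0.889), Npepps (0.887) and C730002L08Rik (0.855), and for Grm2 Rprd1a (0.936), C1ql3 (0.874) and Rsrc2 (0.851). Among the receptors themselves, Grm5 and Grm7 (0.86) and Grm4 and Grm8 (0.85) were the most alike pairs, and Grm3 and Grm5 (-0.48) the least.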

How the data were processed

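The deposited files hold raw UMI counts per gene and barcode, and per the file headers Cell Ranger 7.0.1 wrote them. The submitters' processing notes name bcl2fastq 2.20.0.422 and the build mm10. Neither the annotation release nor the use of intronic reads is given in the sources used here. GENCODE vM21 matched 32158 of 32285 gene IDs by identifier and gave positions and lengths.

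Nuclei were kept from 500 genes upward and up to 5% mitochondrial UMIs (16034 male, 19251 female). Scrublet in scanpy 1.11.5 called 9.58% of male nuclei by its automatic threshold. In the female library that threshold called 0%, so nuclei in the top 8% of scores were taken as doublets, and the rules differ between libraries. Called nuclei and 6 of 33 clusters with over 35% called nuclei were removed. Nuclei were clustered (3000 variable genes, 40 components, 15 neighbours, Leiden resolution 1) without the Grm genes and pathway genes, and a cluster was named where at least 3 of its 8 markers lay over 2-fold. The 35% limit, the resolutions of the subclusters and the naming exceptions were set after the data were seen. The members, marker lists and pathway lists were chosen with earlier results of these data known.

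UMIs were summed per library and class and turned into CPM here. Intervals are exact Poisson for levels, Clopper-Pearson for shares and conditional binomial for ratios, all at 95%. With 0 UMIs the upper limit is that of 3 counts. Named were all 6 members in each class, the 3 genes most alike to each, and per pathway list the genes with the highest and lowest median ratio and the class highest in Homer1, Homer2, Homer3, Elfn1, Elfn2, Pick1, Plcb1 and Plcb4. Of the results under this rule, 1 is not reported here. Group shares were planned over all family genes and are given over the 6 members and over all. The computations were tested on simulated data.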

Additional observations from a re-analysis of the deposited data

Results flagged for a closer look

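Grm3 lay past 1.5-fold in opposite directions in different classes, with a log2 ratio of male over female of 0.99 in Fn1 subicular neurons, -1.19 in Lamp5 interneurons and -1.56 in oligodendrocyte precursors. Grm8 did likewise, at 0.64 in microglia, -1.51 in Cdh18/Syt2 interneurons and -0.74 in Vip or Cck interneurons. Some of these values are weak. The precursor Grm3 ratio was -0.13 with called doublets kept, and the microglial Grm8 ratio was 0.57 once centred on the median gene. In Cdh18/Syt2 nuclei 41 of the 52 female Grm8 UMIs came from 3 nuclei. Each class holds 1 library per group, and the difference between the classes was not tested.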

How the results depend on the processing

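Of the 12 ratios past 1.5-fold, 8 stayed past it, on the same side, under each change of nuclei filter, doublet removal, depth, clustering, centring and pseudocount that gave a value (thinning did so for 3 of the 8); the exceptions were Grm3 in precursors and Grm5, Grm7 and Grm8 in microglia, as given above. Among pairs with too few UMIs after thinning to count as measured, 2 of the 8 did not keep their difference, with Grm3 in Lamp5 nuclei at 18.9 and 0 CPM and Grm4 in Npsr1 nuclei at 25.2 and 20 CPM. Over all settings 10 of the 66 ratios changed sign at least once, of which 1 was past the fold, Grm5 in microglia, at -0.080 with called doublets kept. The count of 8 higher in the male library became 19 of 96 with no minimum of UMIs and CPM and 0 at 2-fold, and the count of 4 higher in the female library became 2 at Leiden resolution 0.5, where the Cdh18/Syt2 class was not formed and Grm3 in precursors was inside the fold. Centring on the median gene gave 7 and 5. Thinning to 1000 UMIs moved 19 of 50 ratios by more than their counting interval. Keeping doublets could not give counts for CA2, CA3 and interneuron classes; over the other 44 pairs it gave 6 past the fold on the male side and 0 on the female side, against 8 and 1. The causes were not tested. No paired analysis was possible because each group holds 1 library, and for the same reason no replicate could be left out. Grm2 and Grm4 were measured in only 3 classes each, which depth limits.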
